A study of Bubalus bubalis with 6 samples.

Results

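The genes described here are 8 myosin light chains and 2 myosin light chain kinases, in muscle stem cells (MuSCs) of the water buffalo (Bubalus bubalis). They were chosen by symbol (MYL1, MYL2, MYL3, MYL4, MYL6, MYL6B, MYL9, MYLPF, MYLK and MYLK2), and all 10 were found among the 24616 genes of the deposited table. PolyA-Seq libraries came from 3 samples of proliferating cells in growth medium (GM samples: high-glucose DMEM with fetal bovine serum) and 3 samples of differentiating cells (DM samples: DMEM with horse serum). Both groups were primary cultures from fetal longissimus muscle, digested with collagenase and trypsin, with no further treatment and no sorting stated. The labels give neither the time in differentiation medium, nor the number of fetuses, nor whether each sample was a culture of its own, so p-values measure the spread between these samples, which may be technical. The libraries held 35615864 to 40305237 counts on genes. DM replicate 3 stood apart: the chi-square per degree of freedom between replicates was 40.5 and 41.4 for its pairs and 6.22 to 11.7 for all other pairs of the same group.

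Myosin is a motor with heavy chains that hydrolyse ATP and pull on actin, and light chains that wrap around the neck of each head. Every neck carries an essential light chain, which stiffens the lever, and a regulatory light chain, which can be phosphorylated by a calmodulin-dependent kinase. Skeletal muscle, heart, smooth muscle and non-muscle cells use different light chain genes, so the set expressed is a known marker of the contractile state of a cell.

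Of the 10 genes, 7 were upregulated in DM samples and none was downregulated: MYLPF and MYL2 among the regulatory light chains, MYL1, MYL3, MYL4 and MYL6B among the essential light chains, and the kinase MYLK. The fitted rises lay between 13.8-fold for MYLK and 75.5-fold for MYL1, with MYL3 at least 28.5-fold higher. MYL6, MYL9 and the kinase MYLK2 were not called. A gene was called when its log2 fold change exceeded 1 in either direction with an adjusted p below 0.05 in edgeR's quasi-likelihood test on the raw counts, fitted and adjusted over all 15576 genes with at least 10 counts in total. The same number, 7 genes, was called without DM replicate 3. All 10 genes reached that minimum. At these thresholds 15.0% of tested genes were called higher and 10.3% lower, and the median log2 fold change (DM over GM) was 0.03 over all tested genes and 4.0 over the 10. The groups were fully separated for 9 of the 10 genes, where 68.8% of all tested genes were. Levels are the deposited RPKM, which scales counts by gene length and by the total of the sample, shown as mean ± SD (n = 3), and fold changes come from counts after TMM normalization.

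**Figure D1:**
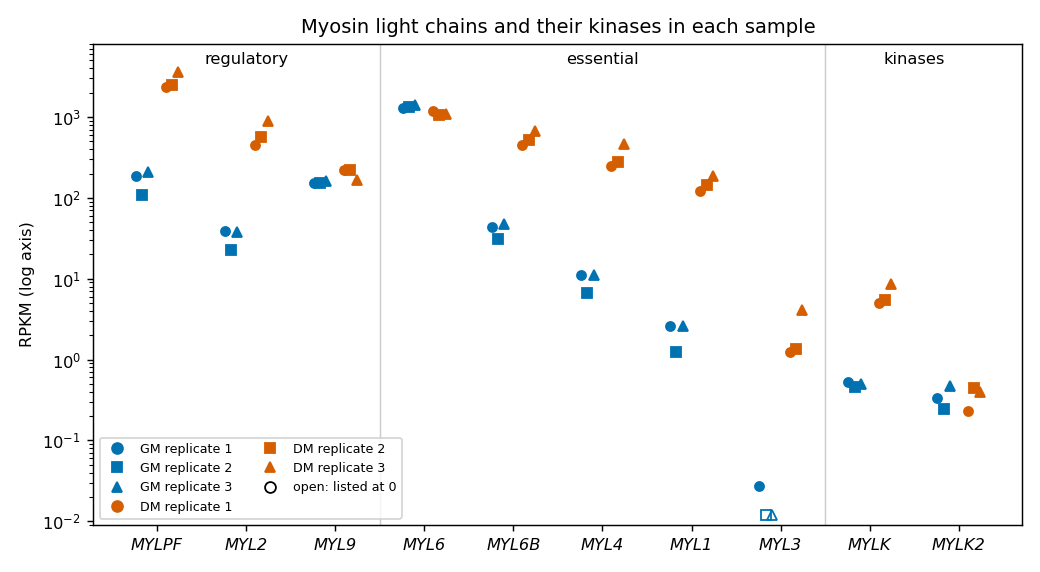
RPKM (log axis) of each gene in each of the 6 samples, with GM samples in blue, DM samples in orange and the marker shape giving the replicate; open markers are samples listed at 0. The DM samples of MYLPF sit between 2330 and 3590 RPKM, above all GM samples, while the groups of MYLK2 overlap.

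MYLPF, the phosphorylatable regulatory light chain of fast skeletal muscle (ENSBTAG00000021218, chromosome 25, 26815266 to 26817727), held 4800, 2809 and 4932 counts in GM replicates 1, 2 and 3. It held 53505, 60037 and 88228 counts in DM replicates 1, 2 and 3. Every DM sample was above every GM sample, GM replicate 2 was the lowest and DM replicate 3 the highest. MYLPF rose from 168 ± 52.8 to 2810 ± 681 RPKM, a log2 fold change of 4.16 ± 0.25 (SE, adjusted p = 1.7e-07, edgeR).

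MYL2, the regulatory light chain of slow skeletal and ventricular muscle (ENSBTAG00000018369, chromosome 17, 56953813 to 56961603), held 1221, 715 and 1083 counts in the GM samples and 12517, 16288 and 26688 counts in the DM samples. The groups were well apart, and the same libraries, GM replicate 2 and DM replicate 3, stood at the ends. Its level rose from 33.3 ± 9.15 to 637 ± 233 RPKM, with a log2 fold change of 4.35 ± 0.27 (SE, adjusted p = 2.67e-07, edgeR).

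MYL9, the regulatory light chain of smooth muscle and of many non-muscle cells (ENSBTAG00000011473, chromosome 13, 66306260 to 66314230), held 7235, 7388 and 7079 counts in GM samples. In DM samples it held 9249, 9704 and 7575 counts. The GM samples lay close together and below all DM samples, of which DM replicate 3 was the nearest to them. The level was 156 ± 5.43 RPKM in GM samples and 201 ± 29.9 RPKM in DM samples. The log2 fold change of 0.47 (95% confidence interval 0.24 to 0.69, adjusted p = 0.00195 from edgeR) was under the fold threshold.

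MYL1 encodes the essential light chains of fast skeletal muscle (ENSBTAG00000009707, chromosome 2, 98527573 to 98555234). It held 194, 92 and 176 counts in GM samples and 7950, 10031 and 13286 counts in DM samples. Its low GM level, 2.15 ± 0.793 RPKM, and its DM level of 151 ± 34.1 RPKM gave a log2 fold change of 6.24 ± 0.25 (SE, adjusted p = 1.55e-08, edgeR). That fold change ranked 81 among the 15576 tested genes, counted from the largest rise.

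MYL4, an essential light chain of embryonic skeletal muscle and of the atrium (ENSBTAG00000021916, chromosome 19, 46925386 to 46938601), held 336, 203 and 313 counts in GM samples. DM samples held 6656, 7786 and 13609 counts. DM replicate 3 was again the highest and GM replicate 2 the lowest. MYL4 rose from 9.60 ± 2.60 to 329 ± 121 RPKM, by a log2 fold change of 5.20 ± 0.28 (SE, adjusted p = 8.32e-08, edgeR).

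MYL3, the essential light chain of slow skeletal and ventricular muscle (ENSBTAG00000008394, chromosome 22, 53202766 to 53208551), was close to undetected in GM samples, with 1, 0 and 0 counts. DM samples held 41, 46 and 144 counts, so DM replicate 3 carried most of them. With GM samples set to 3 counts per library, the level taken as the detection limit for counting error, the DM level of MYL3 was at least 28.5-fold higher (adjusted p = 2.73e-05 from edgeR). The bound was at least 16.6-fold without DM replicate 3. MYL3 lies entirely within the interval of PTH1R on the opposite strand (5786 shared bases), and whether the counting used strand is not stated. PTH1R held 37, 52 and 63 counts in GM samples and 101, 114 and 103 in DM samples, so it did not share the high value of DM replicate 3.

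MYL6B, an essential light chain of slow-twitch muscle and non-muscle cells (ENSBTAG00000031217, chromosome 5, 57489469 to 57492173), held 1293, 933 and 1312 counts in GM samples and 12108, 14388 and 19111 counts in DM samples. The groups did not overlap, with the order of replicates seen for MYLPF at the extremes. MYL6B rose from 40.6 ± 8.71 to 545 ± 110 RPKM, with a log2 fold change of 3.85 ± 0.18 (SE, adjusted p = 3.28e-08, edgeR).

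MYL6, the common essential light chain of non-muscle and smooth muscle myosin (ENSBTAG00000010799, chromosome 5, 57486017 to 57489133), lies beside MYL6B on the same strand with 335 bases between them. It held 35742, 37346 and 35329 counts in GM samples and 28687, 27554 and 29117 counts in DM samples. The GM samples were all above the DM samples, in the direction opposite to its neighbour. The level was 1340 ± 50.7 RPKM in GM and 1110 ± 48.2 RPKM in DM samples. The log2 fold change of -0.17 (95% confidence interval -0.32 to -0.03, adjusted p = 0.0407 from edgeR) was far under the fold threshold. MYL6 and MYL6B are similar in sequence, and reads that match both may have been split between them when counted.

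MYLK encodes the calmodulin-dependent myosin light chain kinase of smooth muscle and non-muscle cells (ENSBTAG00000014567, chromosome 1, 68580144 to 68667822). It held 75, 66 and 66 counts in GM samples and 641, 730 and 1177 counts in DM samples. The GM samples were nearly level, while the DM samples spread, with replicate 3 the highest. MYLK rose from 0.492 ± 0.0338 to 6.34 ± 1.94 RPKM, a log2 fold change of 3.78 ± 0.22 (SE, adjusted p = 1.27e-07, edgeR).

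MYLK2, the skeletal muscle light chain kinase (ENSBTAG00000014930, chromosome 13, 61900820 to 61915380), held 30, 22 and 38 counts in GM samples and 18, 37 and 34 counts in DM samples. The groups overlapped, and both the lowest and the second highest count were DM samples. The level was 0.351 ± 0.111 RPKM in GM samples and 0.359 ± 0.116 RPKM in DM samples. A difference was not detectable at this depth, with a log2 fold change of 0.13 and a 95% confidence interval from -0.71 to 0.98 (adjusted p = 0.777 from edgeR).

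**Figure D2:**
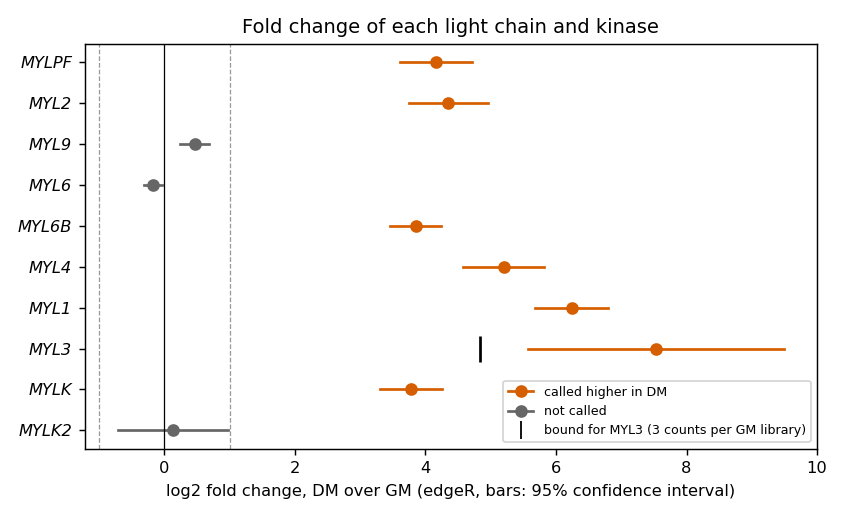
Log2 fold change (DM over GM) of each gene from edgeR, with bars for the 95% confidence interval, orange for genes called higher and grey for genes not called; dashed lines mark the fold threshold and the black tick the lower bound for MYL3. The 7 called genes have intervals that begin above 3, from 3.31 for MYLK, and those of MYL6, MYL9 and MYLK2 stay between -0.71 and 0.98.

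Because RPKM divides by gene length, the genes can be ranked within a group. In GM samples MYL6 stood first, with every sample at 1290 RPKM or more. MYLPF and MYL9 came next and overlapped, then MYL6B and MYL2, which also overlapped. MYL4, MYL1 and the kinases followed, with MYLK and MYLK2 overlapping, and MYL3 was last. In DM samples the order was led by MYLPF, whose lowest sample (2330 RPKM) was above the highest sample of MYL6 (1170 RPKM). MYL2 and MYL6B followed and overlapped, as did MYL6B and MYL4. MYL9 and MYL1 overlapped below them, and MYLK, MYL3 and MYLK2 closed the list without overlap between neighbours.

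The essential class was nearly all MYL6 in GM samples and a mixture in DM samples. MYL6 made up 95.8, 97.2 and 95.8% of the RPKM summed over the 5 essential light chains in the GM samples, and 58.7, 53.4 and 45.4% in the DM samples, each in the order of replicates 1 to 3. MYL6B took 2.90 ± 0.578% in GM samples and 25.3 ± 2.34% in DM samples. MYL4 went from 0.687 ± 0.183 to 15.1 ± 3.66%, and MYL1 from 0.154 ± 0.0564 to 7.02 ± 0.855%. MYL3 reached at most 0.168% in any sample. These shares are descriptions and were given no test.

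Among the regulatory chains, MYLPF took 46.1 ± 7.12% of the RPKM summed over MYLPF, MYL2 and MYL9 in GM samples and 77.0 ± 0.741% in DM samples. That of MYL9 went from 44.6 ± 8.13 to 5.83 ± 1.98%. The near-identical non-muscle regulatory chains MYL12A and MYL12B are not in that sum, and they were added after the data were examined, since MYL12A alone reached 865 ± 29.9 RPKM in GM samples. Over these 5 regulatory chains MYL12A made up 70.3 ± 3.55% in GM and 15.3 ± 2.34% in DM samples. The share of MYLPF was 13.5 ± 3.58% and 64.6 ± 2.06%, and that of MYL9 was 12.7 ± 0.560% and 4.86 ± 1.54%. On that wider basis the summed RPKM of regulatory chains was 0.883 ± 0.0396 times that of essential chains in GM samples and 2.01 ± 0.185 times in DM samples. The 6 called light chains together held 11.0, 6.69 and 11.1% of the RPKM of all 10 light chains in GM samples, and 64.0, 66.9 and 74.6% in DM samples. Those 6 were picked because they were called higher in these same samples, so the direction of this change was set by the choice.

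**Figure D3:**
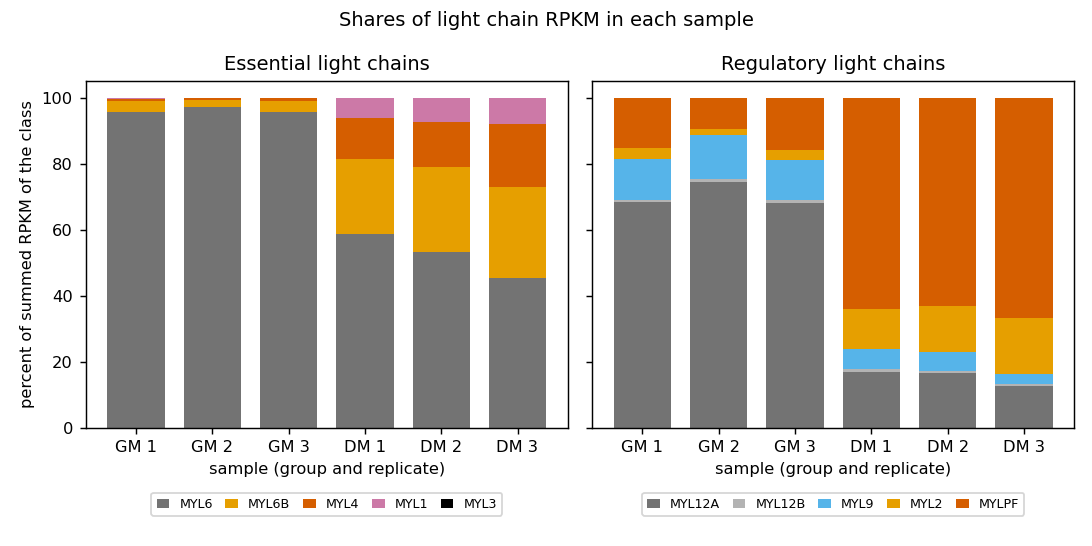
Percent of the summed RPKM of the 5 essential light chains (left) and of 5 regulatory light chains including MYL12A and MYL12B (right), 1 stacked bar per sample. Grey, the share of MYL6 on the left and of MYL12A and MYL12B on the right, fills most of each GM bar (95.8% or more, and 68.9% or more) and at most 58.7 and 17.7% of a DM bar.

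A ratio of a pair of genes within a sample does not depend on the library size. For 7 pairs the log2 ratio of (count + 0.5) per base was compared with an exact two-sided permutation test, for which 3 samples against 3 cannot give less than p = 0.1. MYL6B over MYL6 was 4.02 higher on the log2 scale in DM samples, going from -5.07 ± 0.32 in GM samples to -1.05 ± 0.32 in DM samples, without overlap (exact permutation p = 0.1, 0.14 after Benjamini-Hochberg adjustment over the 7 pairs). MYL1 over MYL6 (difference 6.46), MYL4 over MYL1 (-1.11), MYL9 over MYLPF (-3.74) and MYLK2 over MYLK (-3.61) also separated the groups, each at the same smallest p of the exact test. MYL2 over MYLPF was -2.25, -2.25 and -2.46 in GM samples and -2.37, -2.15 and -2.0 in DM samples, with overlap (difference 0.14, exact permutation p = 0.4, adjusted 0.467). For MYL3 over MYL1 no direction is read, since MYL3 was at its detection limit in GM samples and the ratio there depends on the count added.

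The called genes also varied together between replicates of the same group. DM replicate 3 was the highest DM sample for all 7 called genes, by 1.37 to 3.15 times the mean of DM replicates 1 and 2 in CPM (counts relative to a library size adjusted by TMM). That library held the highest DM value for 37.7% of all tested genes and for 42.2% of the 2330 genes called higher over the whole table. GM replicate 2 was the lowest GM sample for 6 of the 7, all but MYL3, which had no counts there or in GM replicate 3. The share was 35.2% of all tested genes and 42.5% of the 2330. MYLK is among the 6, though its GM samples were nearly level at 75, 66 and 66 counts. Its GM replicate 2 stood at 0.894 times the mean of GM replicates 1 and 3 in CPM. Both patterns together held for 6 of the 7 genes, for 11.8% of all tested genes and for 18.8% of the 2330. MYL9 went the other way in DM replicate 3, at 0.760 times the mean of the other DM samples, and MYL6 was level with them at 0.982 times. The genes are not independent replicates, so these counts have no test.

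**Figure D4:**
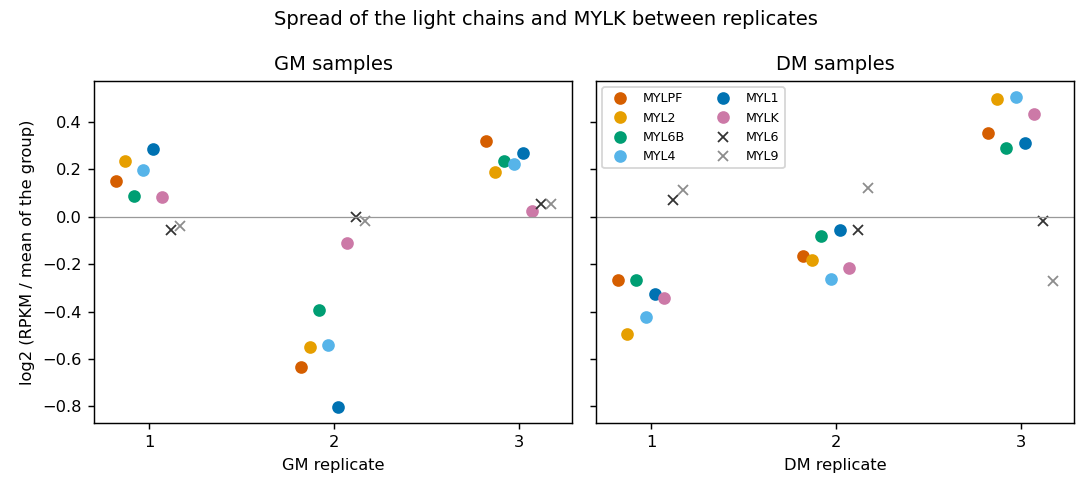
Log2 of RPKM over the group mean for 6 called genes (coloured dots; MYL3 is left out because it is listed at 0 in 2 samples) and for MYL6 and MYL9 (crosses), by replicate, GM samples left and DM samples right. The dots fall lowest in GM replicate 2 and highest in DM replicate 3, where MYL9 is lowest relative to the mean of the DM samples.

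Markers of the cells in the culture followed the order of these libraries only in part. The marker counts stand beside 15.0% of all tested genes called higher and 10.3% called lower. Of 10 skeletal muscle markers, 8 were listed and tested (TTN and MYMK were not listed by symbol), of which 4 rose and 1 fell. Their median log2 fold change was 1.28. The rises were those of CKM, ACTA1, TNNT3 and MYOG, and the fall was that of MYF5 (log2 fold change -2.7). PAX7 (-0.92), MYOD1 (0.9) and DES (-0.15) were not called. MYOD1, MYF5 and MYOG, which define the lineage, were detected in every sample, as was DES. The whole list summed to 1320, 1240 and 1430 RPKM in the GM samples, lowest in replicate 2, and to 2230, 2310 and 2810 RPKM in the DM samples, highest in replicate 3. Most of that DM sum came from DES (887 ± 146 RPKM) and ACTA1 (993 ± 148 RPKM). The stem cell and early myogenic factors had another order: PAX7 held 415, 400 and 226 counts and MYOD1 2270, 2745 and 1455 counts in the DM samples, lowest in replicate 3. MYOG and MYF5 had their highest DM counts in replicate 2. Fibroblast markers (8 of 8 tested, 6 called higher and none lower, median 1.39) summed to 8160 to 8380 RPKM in GM samples. In DM replicates 1, 2 and 3 the sum was 26200, 24800 and 21000 RPKM. Most of that DM sum came from the collagens COL1A1 (9040 ± 418 RPKM), COL3A1 (8340 ± 1450 RPKM) and COL1A2 (4890 ± 579 RPKM). PDGFRA (log2 fold change 0.58) and POSTN (-0.93) were the markers not called. By count, POSTN (5894, 6904 and 13100) and THY1 were highest in DM replicate 3, and the other fibroblast markers in replicate 1 or 2. In bulk RNA, a change in the number of cells of a type cannot be told apart from a change in RNA per cell, and the part of either marker group in the light chain values was not tested.

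Several light chains are shared with other muscles, so the markers of those were read as well. Again, 15.0% of all tested genes were called higher and 10.3% lower. Of 8 smooth muscle markers, 1 rose (LMOD1) and 1 fell (SMTN). Their median log2 fold change was 0.07, and their summed RPKM ran from 3180 to 3290 in GM and from 2280 to 2600 in DM samples. Of 10 cardiac markers, 6 were tested and 4 called higher, with a median of 3.69. These were TNNT2, TNNI3, MYH6 and MYBPC3, sarcomere genes of which TNNT2 is also known from immature skeletal muscle. TNNI3 held only 0, 2 and 5 counts in GM and 14, 6 and 69 counts in DM samples, so DM replicate 3 carried most of them. The cardiac list summed to between 35.6 and 65.8 RPKM in GM and between 620 and 681 RPKM in DM samples. Most of that sum came from TNNT2 (51.6 ± 15.5 RPKM in GM and 645 ± 33.0 RPKM in DM samples). The atrial and ventricular hormone genes NPPA and NPPB and the cardiac factors GATA4 and NKX2-5 had at most 1 count in any sample. TBX5, a further cardiac factor, was detected throughout, with 43, 45 and 47 counts in GM and 66, 61 and 52 in DM samples, and the calcium channel gene RYR2 held 12 to 21 counts per sample. Neither of these was called. Endothelial markers (5 of 5 tested, 1 called higher and 2 lower, median -0.74) summed to at most 1.23 RPKM in any sample. Of 5 blood cell markers 2 were tested, 1 called lower and none higher, with a median of -0.84, and the list summed to at most 4.72 RPKM.

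At the transcript level the deposited table lists 11 mRNAs for these genes, and 10 of them carry the same counts as their gene. MYL6 is the gene with a pair of transcripts, and ENSBTAT00000014306 held 32385, 33839 and 32011 counts in GM samples and 25618, 24638 and 26066 in DM samples. Its log2 fold change was -0.21, and that of ENSBTAT00000014304, which carries the counts of the gene itself, was -0.19. Neither was called. The counts of the pair add up to more than those of the gene, so the forms share reads and were not measured separately. MYL1 is known to give a long and a short light chain from separate promoters, and MYLK to give long and short kinases. Each is listed as a single transcript, so these forms were not separated.

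The other genes of light chain phosphorylation were called about as often as tested genes in general. Of 32 genes in a list that includes further light chains, kinases and phosphatase subunits, 28 were listed and 26 tested, of which 5 rose, 2 fell and 19 were not called. Over all tested genes 15.0% were called higher, 10.3% lower and 25.3% in either direction. The median log2 value of the list was -0.04. MYL12A held 28618, 29586 and 28079 counts in GM samples and 18631, 20753 and 21954 in DM samples. Its log2 fold change of -0.32 was not called. MYL12B, its close paralog, rose from 10.8 ± 0.244 to 33.0 ± 1.74 RPKM, a log2 fold change of 1.70 (adjusted p = 4.16e-08 from edgeR). Both values are uncertain, since reads that match either paralog may have been split between them.

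The largest called rise in the list was that of MYLIP, a ubiquitin ligase named for its binding to regulatory light chains, with a log2 fold change of 2.20 (1.49 ± 0.197 to 6.37 ± 1.27 RPKM, adjusted p = 8.12e-07, edgeR). DAPK2, a calmodulin-dependent death-associated kinase, rose by 1.55 on the log2 scale, and MYLK3, the cardiac light chain kinase, by 1.44, from 16, 52 and 32 counts to 85, 92 and 64. PPP1R14C, a phosphatase inhibitor, fell by 2.88 on the log2 scale from 38, 39 and 17 counts to 0, 8 and 3. CIT, the citron kinase of cytokinesis, fell by 1.51, from 19.7 ± 0.696 to 6.46 ± 0.680 RPKM. MYLK4 was not called (2, 1 and 0 counts in GM samples, then 3, 3 and 9 counts with differentiation, a fitted log2 fold change of 2.35 against a group at its detection limit, adjusted p = 0.0584, edgeR), MYL10 had at most 1 count in any sample and MYL5 was not listed by symbol. MYL7, the atrial regulatory light chain, had 0 counts in all 6 samples, which allows a level of up to 0.0888 CPM in the shallowest library.

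Light chains bind to heavy chains, so the heavy chain genes were read beside them. Among all tested genes, 15.0% were called higher and 10.3% lower. Of 14 heavy chain genes, 13 were tested, of which 8 rose, 1 fell and 4 were not called. The median of their log2 fold changes was 2.58. The rises of MYH1, MYH4, MYH7B and MYH13 and the fall, that of MYH15, were at low levels, with group means of at most 1.34 RPKM. MYH1 and MYH13 had 3 counts or fewer in each GM sample, so their rises are bounds, of at least 69.1-fold and 6.33-fold. The non-muscle heavy chains MYH9 (502 ± 12.8 RPKM) and MYH10 (323 ± 7.61 RPKM) had the highest levels in GM samples. In DM samples MYH9 stood at 345 ± 33.5 RPKM, a log2 fold change of -0.44 that was not called, beside the embryonic heavy chain MYH3, which rose from 58.7 ± 20.6 to 327 ± 91.1 RPKM (log2 fold change 2.58, adjusted p = 9.5e-06 from edgeR). MYH3 held 17334, 8605 and 15710 counts in GM samples and 55632, 67229 and 100193 in DM samples. GM replicate 2 and DM replicate 3 were at the ends, as for the called light chains other than MYL3.

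**Figure D5:**
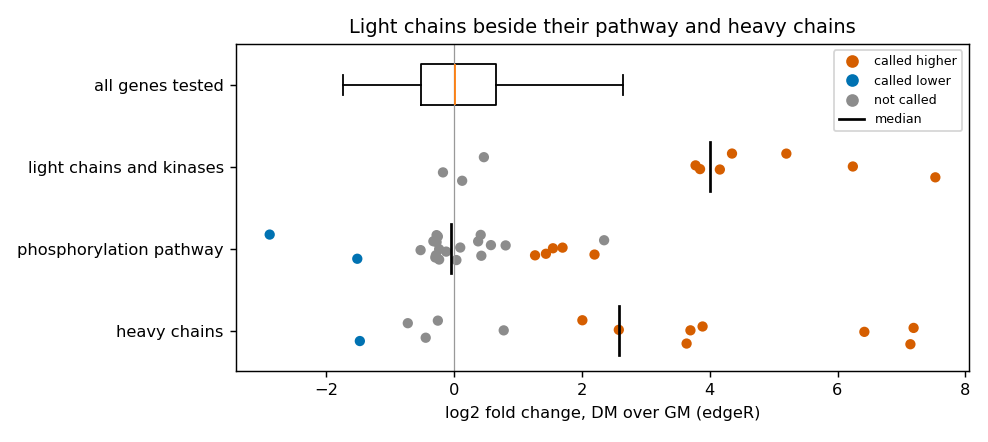
Log2 fold change (DM over GM) of the 10 genes, of 26 tested genes of the phosphorylation pathway and of 13 heavy chain genes, each dot a gene, with orange for called higher, blue for called lower, grey for not called and a black bar for the median; the box plot shows all tested genes (box: quartiles, whiskers: 5th to 95th percentile). The medians are 4.0, -0.04 and 2.58.

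The genes with a profile most like that of MYLPF were sought among 8973 genes averaging 10 CPM or more, by the root mean square difference in log2 CPM centred over the 6 samples. The nearest 5 were ERBB3 (0.12), TNNT1 (0.15), NRAP (0.15), MEF2C (0.16) and MYH7 (0.16). ERBB3 encodes a neuregulin receptor, TNNT1 slow skeletal troponin T, NRAP an actin-anchoring protein of forming myofibrils, MEF2C a muscle transcription factor and MYH7 the slow myosin heavy chain. TNNT1 held 991, 500 and 925 counts in GM samples and 11210, 13586 and 21361 in DM samples, the same order of samples within each group apart from the nearly equal GM replicates 1 and 3. Within the family MYL2 was the nearest to MYLPF (0.15), followed by MYL6B (0.20) and MYLK (0.35), and MYL6 was the farthest (2.21). These distances describe the 6 libraries and have no p-value.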

How the data were processed

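PolyA-selected RNA was sequenced from 3 GM and 3 DM samples. The authors aligned reads with HISAT2 and deposited raw counts per gene and per mRNA transcript, without normalization. The authors also deposited RPKM, which divides each count by the gene length and the sample's total. The stated reference is the buffalo genome, while the tables list cattle Ensembl identifiers and no build, and the submitters' processing notes name Bowtie 0.12.2 and mouse builds. Coordinates are therefore given as the table has them. The authors' lists of fold changes, p-values and q-values and the ncRNA table were not used.

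Counts were tested with edgeR 4.0.16 in R 4.3.3 (TMM, glmQLFit, glmQLFTest, Benjamini-Hochberg adjustment) on genes with at least 10 counts in total. Standard errors came from the F statistic. The edgeR step was also run on simulated data with the same spread set for all samples. Those data lack the wider spread of DM replicate 3, so that run does not test its effect. Python 3.11.15, pandas 2.3.3 and scipy 1.17.1 were used for the rest. The genes described, the lists and the tests were chosen with earlier results of these data known. The genes named are the 10 themselves, the 3 largest called rises and the called falls of the pathway list with its other MYL and MYLK genes, the 2 heavy chains of highest RPKM per group, and the 5 genes most like MYLPF. PTH1R, the heavy chains at low levels and single marker genes were named after their values were seen. Alternatives were DESeq2 1.42.0, other normalizations and filters, no minimum fold, a replicate block and each sample left out. Counting limits cover counting error only.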

Additional observations from a re-analysis of the deposited data

How the results depend on the processing

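The number of the 10 genes called was 7 under 12 of the 14 alternatives, including DESeq2, both other normalizations and each sample left out in turn. It was 9 with no minimum fold change, a threshold that 63.0% of all tested genes passed, and 5 of 7 genes tested under the RPKM rule, which removes MYL3, MYLK and MYLK2. The direction of all genes but MYLK2 stayed the same. Leaving out 1 sample gave log2 fold changes of 3.93 to 4.35 for MYLPF, 5.96 to 6.41 for MYL1 and 6.76 to 9.31 for MYL3, the last without GM replicate 1, the GM sample with its single count. The adjusted p-value of MYL6 (0.0407 in edgeR) ranged from 0.00245 to 0.16 over the alternatives. MYLK2 turned to -0.07 without GM replicate 2 and to -0.03 without DM replicate 2, and its transcript (-0.08 to 0.37 with 1 sample left out) to -0.03 with library size alone. The cause for MYLK2 was not tested. The MYL3 over MYL1 ratio turned from 0.39 to -0.40 with 1 count added and lay between -0.01 and 0.71 with 1 sample left out; the count added acts there on MYL3 counts of 1, 0 and 0 in GM samples. Of the pathway list 7 genes were called, 4 under the RPKM rule and 21 of 26 with no minimum fold change, again beside 63.0% of all tested genes. Same-numbered GM and DM samples did not deviate together (r between -0.02 and -0.01 across genes), and with a replicate block 7 of the 10 genes and 7 of the pathway list were called. With library size alone, all tested genes had a median of -0.07 in place of 0.03. With few counts, MYL3, MYLK2 and MYLK4 are limited by depth.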
